A study of Homo sapiens with 40 samples.

Results

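Secretory defence proteins are made by epithelia that line ducts and airways and are released into milk, saliva, tears and mucus. LCN2 (neutrophil gelatinase-associated lipocalin) binds the iron carriers of bacteria, and LTF (lactoferrin) binds iron itself. PIGR is the receptor that carries polymeric IgA and IgM across the epithelium, and its cleaved outer part leaves with the antibody. BPIFB1 is a secreted protein of the BPI fold that is known from airway goblet cells and submucosal glands. TCN1 (haptocorrin) binds cobalamin in secretions and in neutrophil granules. SLPI and PI3 (elafin) inhibit neutrophil elastase, and WFDC2 (HE4) shares their whey acidic protein (WAP) domain. Several of these genes are known targets of NF-κB and C/EBP factors in epithelia under inflammatory stimuli, and lactating breast secretes lactoferrin and PIGR's product in quantity.

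These 8 genes, of 60708 in each count table, were followed through 24 RNA-seq libraries in 8 groups of 3. The list was chosen from these data, around strong TGFβ responses of LCN2, BPIFB1 and PIGR that depended on the cell line. Values of the members in the TGFβ comparisons are therefore given as a description, without p-values. MI-spheres (MCF-10A, a normal-like human mammary epithelial line) and MII-spheres (MCF-10AneoT, its derivative carrying oncogenic HRAS) were grown in 3D and left unstimulated (Ctrl) or given TGFβ1 at 2.5 ng/ml for 16 h. MDA-MB-231, a triple-negative breast cancer line with mesenchymal features, was grown in 2D as WT cells or as cells labelled SLUG KO, which carry a Cas9 and guide RNA edit of SNAI2. Other MDA-MB-231 cells were transfected with a scrambled siRNA (Csi) or with siRNAs to SMAD2, SMAD3 and SMAD4 (siSMAD2/3/4), a transient knockdown. The knockout was expanded from colonies of single cells, and the labels do not say how many clones were used. The labels call the 3 libraries of a group biological replicates but name no separate cultures, so p-values measure only the spread between these libraries.

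Total counts ranged from 14124688 to 38406952 per library. Replicate libraries correlated with r from 0.996 to 0.998 across 22335 genes in 7 groups, but WT replicate 2 stood apart from WT replicates 1 and 3 (r = 0.958 and 0.954). HRAS was higher in MII- than in MI-spheres (221.0 against 40.7 CPM, which are TMM-scaled counts relative to the library total). SNAI2 RNA was higher, not lower, in the libraries labelled SLUG KO (61.8 ± 3.93 CPM, SD, n = 3) than in WT (27.7 ± 6.84). That comparison therefore goes against its label at the level of RNA, which does not show whether the protein was lost. The study's methods say that knockout clones were checked by ddPCR and immunoblotting, which were not analysed here. SMAD2 and SMAD4 RNA fell by 1.92 and 1.72 on the log2 scale in siSMAD2/3/4 and SMAD3 by 0.69. TGFBI, a matrix protein induced by TGFβ, had log2 fold changes of 1.39 in MI- and 0.84 in MII-spheres (adjusted p = 1.77e-15 and 2.73e-26 in edgeR's quasi-likelihood test), while SMAD7, an inhibitor in the same pathway, stood at 0.11 and -0.14. Of the same list of 4 TGFβ targets, LTBP2 stood at 1.02 in MI- and 0.17 in MII-spheres, and SKIL at 0.60 and 0.08.

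Promoters were taken from RefSeq (GRCh38.p14), which gave 8 windows for 6 of the 8 members. The 250 bases before the start are shown for the 3 members around which the list was chosen and for TCN1, which differed from them in direction. Capitals mark matches, on either strand, to the NF-κB consensus and to C/EBP (TTNNGNAA), AP-1 (TGANTCA), SMAD (CAGAC) and SOX (ACAAAG) motifs. LCN2 is on chromosome 9 (128149203 to 128149452, plus strand), BPIFB1 on chromosome 20 (33282964 to 33283213, plus strand), PIGR on chromosome 1 (206946467 to 206946716, minus strand) and TCN1 on chromosome 11 (59866488 to 59866737, minus strand).
LCN2: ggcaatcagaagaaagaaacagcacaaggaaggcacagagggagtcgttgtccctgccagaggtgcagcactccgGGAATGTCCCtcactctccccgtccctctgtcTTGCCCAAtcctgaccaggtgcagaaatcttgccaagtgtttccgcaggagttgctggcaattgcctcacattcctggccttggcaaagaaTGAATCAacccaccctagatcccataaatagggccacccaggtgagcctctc
BPIFB1: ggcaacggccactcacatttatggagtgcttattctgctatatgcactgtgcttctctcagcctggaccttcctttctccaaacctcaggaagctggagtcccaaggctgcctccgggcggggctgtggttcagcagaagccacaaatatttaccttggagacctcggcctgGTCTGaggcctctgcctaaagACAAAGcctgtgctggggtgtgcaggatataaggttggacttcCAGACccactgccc
PIGR: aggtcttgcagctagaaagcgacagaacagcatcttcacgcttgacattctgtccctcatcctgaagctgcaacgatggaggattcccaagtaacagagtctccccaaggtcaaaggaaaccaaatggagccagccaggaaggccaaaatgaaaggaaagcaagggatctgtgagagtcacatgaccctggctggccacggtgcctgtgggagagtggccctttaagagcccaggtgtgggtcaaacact
TCN1: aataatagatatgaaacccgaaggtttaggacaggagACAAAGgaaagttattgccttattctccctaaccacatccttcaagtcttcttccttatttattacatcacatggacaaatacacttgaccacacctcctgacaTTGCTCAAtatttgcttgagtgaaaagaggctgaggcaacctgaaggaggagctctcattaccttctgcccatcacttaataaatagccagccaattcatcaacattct
The LCN2 window held an NF-κB match on its opposite strand, GGAATGTCCC as printed, and also a C/EBP match and an AP-1 match, and none of the 3 overlapped another. BPIFB1 held 2 SMAD matches and 1 SOX match, TCN1 held 1 SOX and 1 C/EBP match, and PIGR held none of these letters. Of 35116 promoter windows of the same length, 9.96% held the NF-κB motif, 33.2% C/EBP, 6.57% AP-1 and 13.7% SOX, and 13345 windows held SMAD. The RefSeq start of BPIFB1 lies 9734 bases from the GENCODE gene start, so this window need not be the one used in these cells.

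The MII-spheres were the richest source of these transcripts. Together the 8 members took 0.488% to 0.500% of all counts in MII Ctrl and 0.506% to 0.512% in MII TGFβ. In MI Ctrl the share was 0.120% to 0.126%, and in MI TGFβ 0.0807% to 0.0855%. The MDA-MB-231 libraries gave 0.000328% to 0.00120%. In 6 of the 8 members the highest group mean was in an MII group, the exceptions being PI3 (MI Ctrl) and LTF (siSMAD2/3/4). Expressed per kb of exon, which allows genes to be compared, SLPI was the highest member in all 4 sphere groups, from 1372 CPM per kb in MI TGFβ to 2591 in MII TGFβ. TCN1 was next in MII Ctrl (940.1 CPM per kb) and in MII TGFβ (1289), ahead of LCN2 (826.3 and 828.1). In MI Ctrl the next was LCN2 (152.1 CPM per kb), then PI3 (71.3), while TCN1 stood seventh (6.32). In all 4 MDA-MB-231 groups TCN1 was the highest member, at 2.04 to 3.91 CPM per kb.

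LCN2, the iron-siderophore trap, was at 245, 246 and 237 CPM in the 3 MI Ctrl libraries and at 14.7, 16.6 and 15.2 CPM after TGFβ. The 2 groups were 15.6-fold apart with no overlap, a log2 fold change of -3.99 (SE 0.07). Here and below, SE were derived from the fold change and the test statistic, and can be too small where counts are few. In MII-spheres LCN2 was at 1294, 1344 and 1318 CPM without and at 1310, 1320 and 1335 CPM with TGFβ. These ranges overlapped and the log2 fold change was -0.02 (SE 0.03). LCN2 was 85.2-fold apart between the stimulated lines, against 5.43-fold between the unstimulated lines.

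BPIFB1, the BPI-fold secretion, read 44.2, 46.3 and 45.4 CPM in MI Ctrl and 0.911, 1.24 and 0.942 CPM in MI TGFβ, where it rested on 17 to 29 counts per library. Its log2 fold change was -5.47 (SE 0.12, which can be too small at such counts). In MII-spheres it read 299 to 322 CPM in Ctrl and 275 to 286 CPM in TGFβ, a log2 fold change of -0.15 (SE 0.04) with ranges that did not overlap. Stimulated MII-spheres stood 274-fold above stimulated MI-spheres, against 6.77-fold without TGFβ.

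PIGR, the antibody transporter, was lower after TGFβ in MI-spheres too. It was at 43.8, 42.3 and 45.4 CPM in MI Ctrl against 0.536, 0.556 and 1.23 CPM in MI TGFβ, where it rested on 10 to 30 counts. The log2 fold change was -5.80 (SE 0.15), and leaving out MI TGFβ replicate 3, the highest of its group, made it -6.32. That SE can be too small at such counts. In MII-spheres PIGR was slightly higher after TGFβ, at 147 to 149 CPM against 112.5 to 128 CPM, with a log2 fold change of 0.24 (SE 0.04).

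TCN1, the cobalamin carrier, was higher after TGFβ in MI-spheres. It was at 9.29, 9.86 and 9.28 CPM in MI Ctrl and at 77.9, 72.6 and 84.5 CPM in MI TGFβ, a log2 fold change of 3.02 (SE 0.08). In MII Ctrl it already stood at 1464, 1408 and 1358 CPM, and in MII TGFβ at 1914, 1956 and 1930 CPM, a log2 fold change of 0.43 (SE 0.03). Both pairs of groups were apart without overlap.

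The protease inhibitors differed among themselves. SLPI read 780.4 to 889 CPM in MI Ctrl and 791 to 870.2 CPM in MI TGFβ, which overlapped (log2 fold change -0.06, SE 0.06), and was slightly higher after TGFβ in MII-spheres (1501 to 1568 against 1344 to 1400 CPM, log2 fold change 0.14, SE 0.03). WFDC2 was lower in MI TGFβ (7.45 to 9.16 CPM) than in MI Ctrl (16.6 to 20.3 CPM), with a log2 fold change of -1.23 (SE 0.11), and overlapped in MII-spheres (-0.16, SE 0.05). PI3 was also lower in MI TGFβ (18.3 to 18.8 CPM) than in MI Ctrl (38.6 to 40.0 CPM, log2 fold change -1.11, SE 0.07). In MII-spheres PI3 was near 1 to 2 CPM and its ranges overlapped (0.32, SE 0.29). LTF had 0 to 4 counts in each sphere library and was not tested there.

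**Figure D1:**
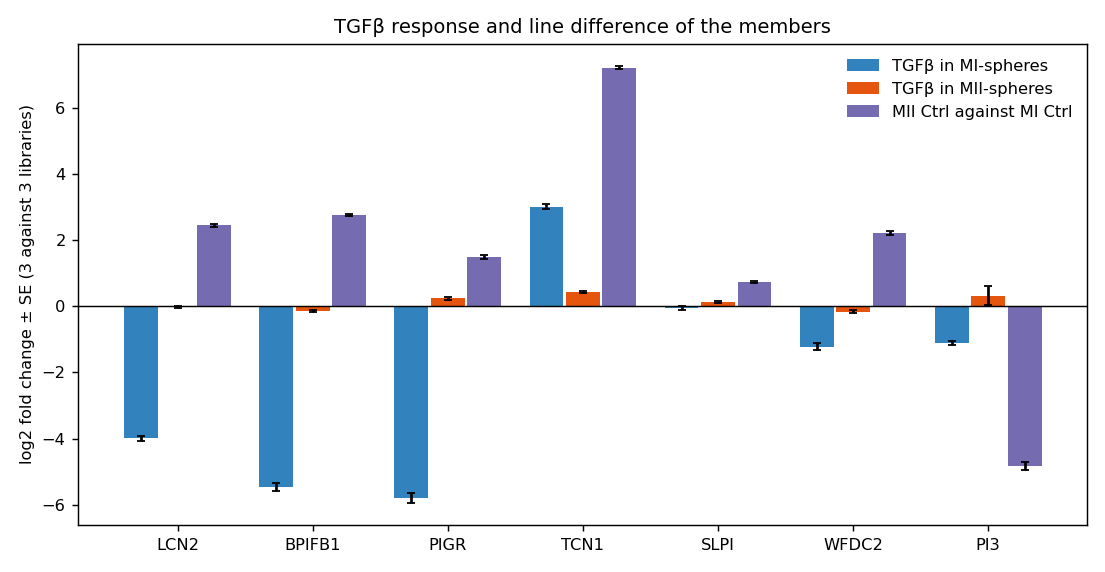
Bars show the log2 fold change of the 7 members tested (LTF had too few counts) for TGFβ in MI-spheres, TGFβ in MII-spheres and unstimulated MII- against MI-spheres, with whiskers of 1 SE, 3 against 3 libraries each. The MI response spans -5.80 for PIGR to 3.02 for TCN1, whereas every MII response lies between -0.16 and 0.43. Whiskers can be too short where counts are few, since SE were derived from the test statistic.

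In MI-spheres 6 of the 7 members tested were past the thresholds used for differentially expressed genes (DEGs, absolute log2 fold change above 1 and adjusted p under 0.05 in edgeR's quasi-likelihood test), 1 higher and 5 lower, where 13.6% of all genes were DEGs. In MII-spheres no member's log2 fold change reached 1, and 10.6% of all genes were DEGs. The response of MII- minus that of MI-spheres was 3.98 for LCN2, 5.33 for BPIFB1, 6.05 for PIGR and -2.58 for TCN1 on the log2 scale. Its value was 1.09 for WFDC2, 1.45 for PI3 and 0.20 for SLPI, and 6 of 7 members were past the thresholds, against 5.84% of all genes. WFDC2 went below 1 (to 0.98) without MI Ctrl replicate 1 or without MI TGFβ replicate 3. Since the list was chosen on these contrasts, nothing is read from these counts. In bulk RNA, fewer cells making a transcript and less of it per cell cannot be told apart.

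Other cell identity markers moved in the same spheres. The summed level of 11 basal mammary markers was 2495 to 2556 CPM in MI Ctrl and 4326 to 4632 CPM in MI TGFβ. It was 1401 to 1463 CPM in MII Ctrl and 2725 to 2881 CPM in MII TGFβ. In MI-spheres 2 of 11 tested basal markers rose and 9 were not called, where 13.6% of all genes were DEGs. In MII-spheres 4 of 10 rose and 6 were not called, against 10.6% of all genes. KRT17, a keratin of this list, read 1280 CPM in MI Ctrl and 2391 CPM in MI TGFβ. KRT5, a basal keratin, rose in MI-spheres (log2 fold change 2.39, SE 0.05) and in MII-spheres (3.38, SE 0.05). The sum of 12 luminal markers was 2186 to 2229 CPM in MI Ctrl and 1743 to 1914 CPM in MI TGFβ, but 3508 to 3616 CPM in MII Ctrl and 3759 to 3942 CPM in MII TGFβ. With TGFβ in MI-spheres 1 of 8 tested luminal markers rose, 3 fell and 4 were not called, against 13.6% of all genes called. Their median log2 fold change was 0.03. The lower sum followed ALDH1A3, an aldehyde dehydrogenase, which fell from 844 to 255 CPM, whereas EPCAM, an epithelial adhesion molecule, rose from 62.0 to 134 CPM and KRT8, a luminal keratin, read 631 and 809 CPM. The 10 mesenchymal markers summed to 68.6 to 77.0 CPM in MI Ctrl and 271.4 to 301.4 CPM in MI TGFβ, against 157.1 to 166.3 and 175.2 to 186.2 CPM in MII-spheres. FN1 (fibronectin) made up most of these sums, at 55.3 and 253 CPM in MI-spheres and 134 and 146 CPM in MII-spheres. Of the mesenchymal markers 4 of 8 tested rose in MI-spheres, against 13.6% of all genes called. In MII-spheres 2 of 7 rose, VIM (vimentin, 1.51) and CDH2 (N-cadherin, 1.21), and COL1A1, a collagen chain, fell (-1.33), against 10.6% of all genes called. Their part in the members' responses was not tested. LCN2, LTF and TCN1 are also stored in neutrophil granules. Of 15 neutrophil markers 11, among them MPO, ELANE, PRTN3, AZU1, CTSG, CEACAM8 and PTPRC, were at or under 0.256 CPM in every sphere library, and OLFM4 and PGLYRP1 reached at most 0.424 and 0.625 CPM. All 15 summed to 13.8 to 15.1 CPM in MI Ctrl, mostly from S100A12 (8.82 CPM) and CSF3R (4.72 CPM), and to 4.93 to 6.33 CPM in MI TGFβ. There S100A12 and CSF3R fell (log2 fold changes -1.78 and -1.31). LCN2 was also lower there, whereas TCN1 was higher (3.02).

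Unstimulated MII-spheres differed from MI-spheres in TCN1, WFDC2, SLPI and PI3, the 4 members put to a test. This comparison shares its Ctrl libraries with the responses above. TCN1 was 149-fold higher by the ratio of mean CPM (log2 fold change 7.22, SE 0.05, adjusted p = 2.93e-64 in edgeR's quasi-likelihood test). WFDC2 rose by 2.22 (SE 0.07, adjusted p = 2.88e-35) and SLPI by 0.73 (SE 0.04, adjusted p = 1.03e-24, under the fold threshold). PI3 went the opposite way, from 39.2, 40.0 and 38.6 CPM in MI Ctrl to 1.12, 1.16 and 1.93 CPM in MII Ctrl. There PI3 rested on 17 to 35 counts per library. Its log2 fold change was -4.83 (SE 0.12, which can be too small at such counts, adjusted p = 2.29e-39 in the same test). LCN2, BPIFB1 and PIGR were higher by log2 values of 2.45, 2.77 and 1.49, given without a test. All 4 members put to a test had an adjusted p under 0.05, as had 64.2% of all genes, and 3 were DEGs, as were 20.1% of all genes. SLPI, PI3 and WFDC2 lie within 306.6 kb on chromosome 20, and their line differences had different signs.

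**Figure D2:**
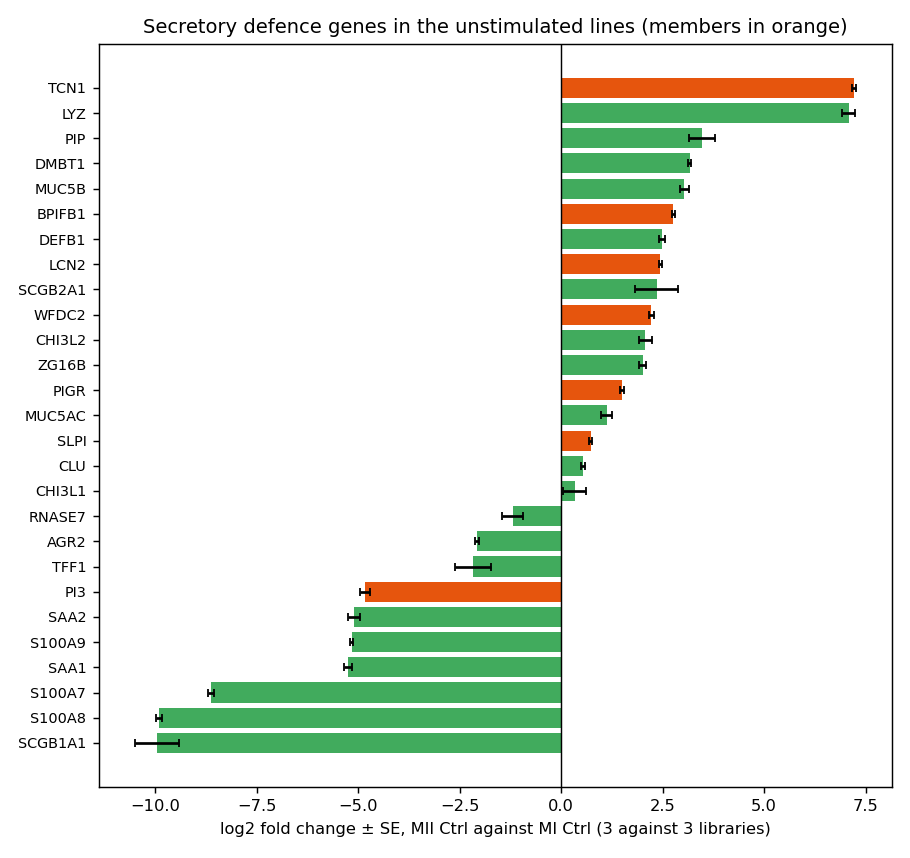
Log2 fold change of MII Ctrl against MI Ctrl, with whiskers of 1 SE (3 against 3 libraries), for the 7 members tested (orange) and 20 other antimicrobial or mucosal secretions (green). TCN1 at 7.22 and LYZ at 7.09 stand at the MII end. PI3 at -4.83 is the only member on the MI side, with S100A8 at -9.91 among the lowest. Whiskers can be too short where counts are few, since SE were derived from the test statistic.

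The other secretory defence genes split between the lines. Of 35 listed antimicrobial and mucosal secretions, 20 were tested between the unstimulated lines, and 9 rose and 9 fell in MII-spheres (median log2 fold change 0.44, against 0.02 over all genes). Of all genes 20.1% were DEGs between these lines. LYZ (lysozyme) rose from 0.260 to 35.8 CPM and DMBT1, a scavenger receptor of saliva and mucus, from 59.2 to 529.3 CPM (log2 fold changes 7.09 and 3.16). S100A8 and S100A9, the subunits of calprotectin, fell from 1440 and 3127 CPM to 1.53 and 87.2 CPM (log2 fold changes -9.91 and -5.16). KLK5, a kallikrein protease, was at 0.0879 CPM in MI Ctrl (0.0519 to 0.116 CPM) and 260.0 CPM in MII Ctrl. Its log2 fold change of 11.40 (SE 0.11) rests on a near-zero level in MI Ctrl, where the SE can be too small. Of 6 tested genes of the proteases and transglutaminases acting with SLPI or elafin, 4 rose, KLK5 among them, and 1 fell, against 20.1% of all genes called. TGM2, a transglutaminase, rose by 8.64 and TGM1 fell by 3.16. Of the iron and cobalamin carriers and receptors, 4 of 7 tested rose and 1 fell, against the same 20.1% of all genes. TCN2, the plasma cobalamin carrier, rose by 3.28, MELTF (melanotransferrin) by 1.52, and LRP1 fell by 2.82.

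With TGFβ in MI-spheres 6 of 17 tested secretions fell and the other 11 were not called, where 13.6% of all genes were DEGs (median log2 fold change -0.62, against -0.02 over all genes). S100A7 (psoriasin) fell from 324.6 to 40.97 CPM and SAA1, an acute-phase protein, from 54.1 to 11.2 CPM (log2 fold changes -3.01 and -2.31, adjusted p = 5.69e-19 and 3.70e-16 in edgeR's test). In MII-spheres 2 of 17 rose and 1 fell, against 10.6% of all genes (median 0.14). AGR2, a disulfide isomerase of mucus-producing cells, rose from 45.2 to 139.8 CPM (1.61, adjusted p = 3.56e-32) and S100A8 from 1.53 to 3.83 CPM (1.33, adjusted p = 2.26e-06). MUC5AC, a secreted mucin, fell in MI-spheres (-2.97) and in MII-spheres (-1.56). The response differed between the lines in 8 of 20 tested secretions (7 higher in MII-spheres and 1 lower), against 5.84% of all genes, with AGR2 at 2.48 and DEFB1, a beta-defensin, at -1.02.

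Of 23 NF-κB, C/EBP and ETS regulators of secretory genes, 22 were tested in MI-spheres, where 9 fell and 13 were not called (median log2 fold change -0.68), where 13.6% of all genes were DEGs. NFKBIZ (IκBζ, a co-activator of NF-κB needed for LCN2 induction by interleukin-17) fell from 140.6 ± 6.38 to 39.1 ± 1.60 CPM (SD, n = 3), a log2 fold change of -1.88 (SE 0.06, adjusted p = 2.77e-16 in edgeR's test). NFKBIA, the inhibitor that NF-κB induces, fell by 1.36 (SE 0.05, adjusted p = 4.15e-15). In MII-spheres 1 of 23 rose (SPDEF, 1.00) and 1 fell (CEBPA, -1.25), against 10.6% of all genes, and the median was -0.05. NFKBIZ and NFKBIA were lower there too, under the fold threshold (-0.56 and -0.29, adjusted p = 1.91e-18 and 4.58e-06 in edgeR's test). NFKBIZ read 294 CPM in MII Ctrl and 203 CPM in MII TGFβ. The difference of response was past the thresholds for 7 of 23, against 5.84% of all genes, 6 higher in MII-spheres and 1 lower, with NFKBIZ at 1.33, FOXA1, a luminal pioneer factor, at 1.17 and CEBPA at -1.32. Unstimulated MII-spheres had more NFKBIZ (294.1 CPM) and less NFKBIA (79.8 against 372.7 CPM) than MI-spheres, log2 fold changes of 1.07 and -2.22. Of all 23 regulators 2 rose between these lines, 3 fell and 18 were not called (median -0.05), where 20.1% of all genes were DEGs. SPDEF stood at -2.25 and CEBPD at -1.23. NFKB1, NFKB2 and RELB stood at -0.88, -0.92 and -0.90, under the fold threshold. The regulators' part in the members' responses was not tested. These lists were drawn up with earlier results of these data known.

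**Figure D3:**
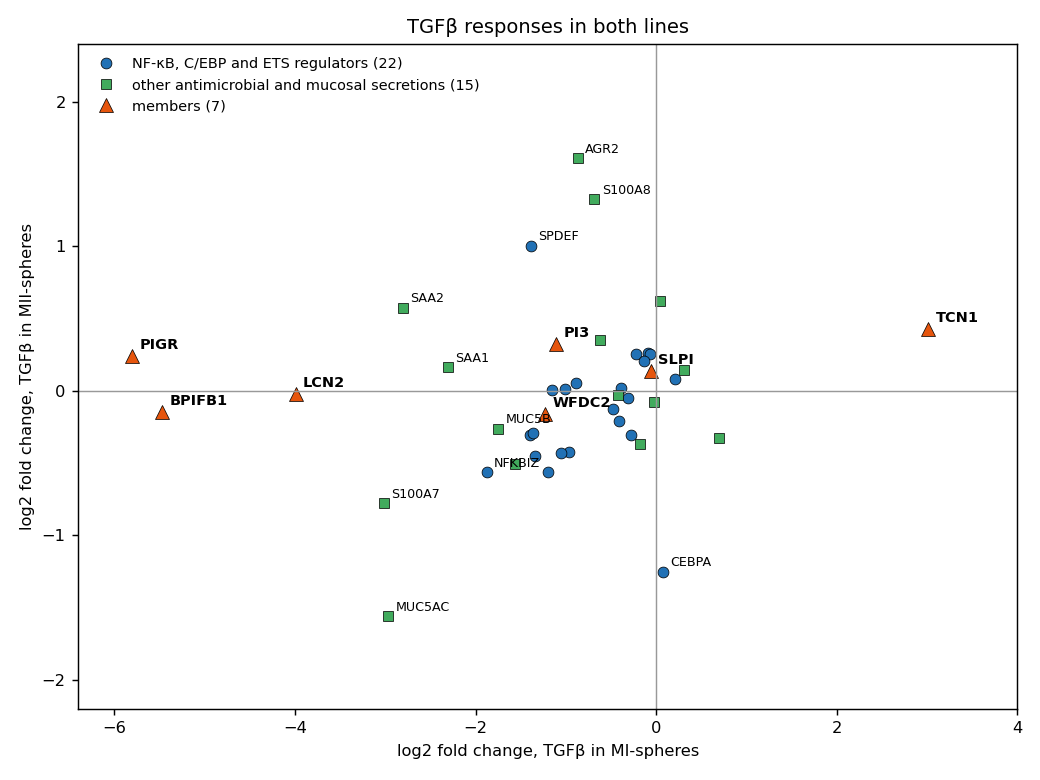
Each point is a gene, by its log2 fold change with TGFβ in MI-spheres (x axis) and in MII-spheres (y axis), for genes tested in both lines (7 members, 22 regulators and 15 other secretions). Most regulators lie left of 0 on the x axis and near 0 on the y axis, as do LCN2, BPIFB1 and PIGR much farther left. TCN1 is the farthest right.

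The nearest relatives of the members mostly had too few counts to test. Of 11 other BPI-fold genes only BPIFA2, 111.7 kb from BPIFB1, was tested in spheres, and it fell with TGFβ in MI- (-2.09, SE 0.56, adjusted p = 0.00352 in edgeR's test) and in MII-spheres (-1.13, SE 0.21, adjusted p = 6.24e-06), from means of only 0.834 and 4.31 CPM. Of 18 other lipocalins only 3, and of 17 other WAP-domain genes only 2, had enough counts to be tested in MI-spheres. Of 16 tested protein-coding genes starting within 250 kb of LCN2, 2 were DEGs with TGFβ in MI-spheres, where 13.6% of all genes were. BBLN starts 11.2 kb from the LCN2 start and was the closest DEG to it, with a log2 fold change of -1.20 (SE 0.06) in MI-spheres and 0.07 (SE 0.05) in MII-spheres. EEIG1, 168.1 kb from LCN2, was at -1.17 in MI- and -0.34 in MII-spheres. Near PIGR 2 of 5 tested genes were DEGs in MI-spheres. IL24 (49.0 kb), an interleukin-10 family cytokine, fell by 4.02 and C1orf116 (86.3 kb) by 1.18. No annotated gene overlaps the exons of a member.

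LCN2, BPIFB1 and PIGR were chosen for the same line-dependent response, so their likeness across the 12 sphere libraries is a description that the choice largely fixed. Pearson's r of log2 CPM was 0.999 between LCN2 and BPIFB1, 0.981 between LCN2 and PIGR and 0.987 between BPIFB1 and PIGR. These libraries fall into 4 groups of replicates, so r follows mainly the 4 group means. It takes no account of size, and MI Ctrl stood above MI TGFβ by 15.6-fold for LCN2, 43.9-fold for BPIFB1 and 56.7-fold for PIGR. Of 13548 protein-coding genes, the most like LCN2 were BPIFB1, TMC5 (r = 0.994) and PLAAT4 (0.994), and the most like BPIFB1 were LCN2, TNS3 (0.995) and MGAT4A (0.995). The most like PIGR were PRSS23 (0.997), TNS3 (0.994) and CATSPERB (0.993). WFDC2 came near this profile (r = 0.961 with LCN2), whereas TCN1 went with SLPI (0.922) and against PI3 (-0.977).

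In MDA-MB-231 the members were scarce. BPIFB1 had 0 to 4 counts per library, PIGR 2 to 9 and PI3 0 to 3. SLPI, the highest member of the spheres per kb, had 1 count in the 3 WT libraries together and 0 in the 3 libraries labelled SLUG KO, where 3 counts would make 0.0433 CPM. Csi and siSMAD2/3/4 libraries had 7 to 21 SLPI counts each. They were sequenced in another batch than WT and SLUG KO, so batch, transfection and culture cannot be told apart between these pairs. LTF was the only member with higher means in all 4 MDA-MB-231 groups (0.542 to 1.03 CPM) than in the sphere groups (0.0462 to 0.134 CPM). Neighbours in the order of LTF means overlapped within both sets.

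LCN2 was modestly higher after knockdown of SMAD2, SMAD3 and SMAD4. Its adjusted p was no longer under 0.05, with a similar estimate, once the flow cell in the file names was a term. It read 2.67, 3.26 and 2.86 CPM in Csi and 4.81, 4.67 and 4.25 CPM in siSMAD2/3/4, without overlap, a log2 fold change of 0.64 (SE 0.15, adjusted p = 8.58e-04 in edgeR's quasi-likelihood test). It was 1 of 5 members tested with an adjusted p under 0.05, where 36.0% of all genes had one. The file names place siSMAD2/3/4 replicates 1 and 2 on another flow cell than the rest, whereas their deposited batch label gives all 6 libraries the same flow cell, and which is right could not be settled here. With flow cell as a term LCN2 had a log2 fold change of 0.54 and adjusted p = 0.0629 in edgeR's test. By the file names only siSMAD2/3/4 replicate 3 shares the flow cell of the Csi libraries, so this estimate rests on 1 knockdown library. Over the 4 libraries of the shared flow cell the log2 fold change was 0.55. WFDC2 read 0.445, 0.329 and 0.449 CPM in Csi and 0.872, 0.748 and 0.543 CPM in siSMAD2/3/4 (log2 fold change 0.83, SE 0.38, adjusted p = 0.0876), and 0.42 with flow cell as a term. TCN1 (-0.26, adjusted p = 0.139), SLPI (0.57, adjusted p = 0.360) and LTF (0.20, adjusted p = 0.665) did not pass the test either. By edgeR 0 of 5 members were DEGs, where 1.90% of all genes were, 2 had an unadjusted p under 0.05, and DESeq2 called 0.

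In the libraries labelled SLUG KO, whose SNAI2 RNA was above that of WT, 3 members had enough counts to test and none passed. LCN2 read 1.05, 0.596 and 0.750 CPM in WT and 1.31, 0.816 and 1.18 CPM in SLUG KO (log2 fold change 0.41, SE 0.35, adjusted p = 0.553 in edgeR's test). Without WT replicate 2 its value was 0.27 (adjusted p = 0.636). TCN1 read 3.63, 1.27 and 4.27 CPM in WT and 3.37, 3.53 and 3.50 CPM in SLUG KO (0.14, SE 0.41, adjusted p = 0.873), and -0.21 (adjusted p = 0.448) without WT replicate 2. LTF read 0.674, 0.556 and 0.395 CPM in WT and 1.11, 0.861 and 0.818 CPM in SLUG KO, without overlap (0.72, SE 0.35, adjusted p = 0.311, and 0.77, adjusted p = 0.196, without WT replicate 2). By edgeR 0 of 3 were DEGs and 0 had an unadjusted p under 0.05, DESeq2 called 0, and 3.05% of all genes were DEGs and 3.33% had an adjusted p under 0.05. WFDC2 had 7 to 16 counts in WT and 1 to 5 in the libraries labelled SLUG KO and was left out by the low-count filter. TCN2, the other cobalamin carrier, did rise there, from 4.98 ± 0.304 to 21.8 ± 2.97 CPM (SD, n = 3, log2 fold change 2.08, adjusted p = 0.00332). Of the other antimicrobial and mucosal secretions 7 were tested there, of which 2 fell, 1 rose and 4 were not called. AGR2 fell from 7.09 to 0.0132 CPM (log2 fold change -8.55) and TFF3 fell (-5.99), while CLU rose (1.53). Of 19 tested regulators of secretory genes 1 fell, SPDEF (-6.25), and 1 rose, NFKBIA (1.07).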

How the data were processed

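RNA of 24 libraries (8 groups of 3) was analysed, and the 16 ATAC-seq samples were not used here. Per the file headers and the submitters' processing notes, the authors used Trimmomatic for trimming and STAR for alignment to GRCh38.p13, and counted fragments over GENCODE 38 exons with featureCounts 2.0.0 (both ends mapped, minimum mapping quality 30, strand ignored). The deposited values are raw counts for 60708 genes, of which 60463 were given a symbol from GENCODE 44. The labels and the paper differ on read length and RNA input.

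Fits with edgeR 4.0.16 (R 4.3.3) took the 6 libraries of a comparison, or 12 sphere libraries for the interaction, with filterByExpr (minimum count 10), TMM and the quasi-likelihood test. The p-values were adjusted by Benjamini-Hochberg across the whole set of tested genes. Each SE was derived from the log2 fold change and the F statistic of the quasi-likelihood test. Such an SE can be too small where a group has few counts. A gene was a DEG at an adjusted p under 0.05 with a log2 fold change beyond 1 either way. CPM were scaled by TMM over all 24 libraries. The fits were tested on simulated data. DESeq2 1.42.0, other filters and size factors, a replicate block, flow cell and leaving out each library were alternatives.

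The members and lists were chosen with earlier results of these data known. Named genes were taken mainly from the members, up to 2 DEGs per list, direction and comparison with the smallest adjusted p, the targeted genes, SMAD7, the 3 genes most like LCN2, BPIFB1 and PIGR, and DEGs starting within 250 kb of a member. Not every gene that meets this rule is named. Some others, such as SAA2, SPARC and NFKB1, were named after their values were seen. A further gene under this rule is not reported here. Same-numbered libraries were not paired.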

Additional observations from a re-analysis of the deposited data

Results flagged for a closer look

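A closer look was called for where the TGFβ response of MII-spheres differed from that of MI-spheres by the interaction term of edgeR's fit of the 12 sphere libraries. Values are the MII response minus the MI response, on the log2 scale. Among the members these were 6.05 for PIGR, 5.33 for BPIFB1, 3.98 for LCN2, 1.45 for PI3, 1.09 for WFDC2, 0.20 for SLPI and -2.58 for TCN1. The members were chosen for such differences, and PIGR and BPIFB1 rested on 10 to 30 counts per MI TGFβ library.

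Among other secretions and regulators the values were 2.48 for AGR2, 2.03 for S100A8, 1.41 for MUC5AC, 1.33 for NFKBIZ, 1.17 for FOXA1, -1.02 for DEFB1, -1.25 for CUBN, a receptor of vitamin carriers, -1.32 for CEBPA and -2.62 for TGM2. Among cell identity markers they were 1.22 for ALDH1A3, 1.02 for KRT17, 1.00 for KRT5, -1.38 for COL1A1 and -2.06 for FN1. These were the genes of each list with the smallest adjusted p, not the largest differences. Past the thresholds too, and picked after their values were seen, were SAA2 (3.37), SAA1 (2.50), SPDEF (2.397) and S100A7 (2.22) of the secretions and regulators, and PGR (4.38), PROM1 (2.78) and SPARC (-2.202) of the identity markers. PGR had means of 0.0679 and 0.0743 CPM in the MI groups and 0.0518 CPM in MII Ctrl. PROM1 had 0.164 and 0.0546 CPM in MI Ctrl and MI TGFβ. The differences for PGR and PROM1 therefore rest on few counts (SE 1.40 and 0.84).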

How the results depend on the processing

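The counts of members past the thresholds (6 in MI-spheres, 0 in MII-spheres, 6 for the difference of response, 6 between unstimulated lines, 3 of them given without a test, 0 for SLUG KO and 0 for siSMAD2/3/4) held under every alternative, except that leaving out 1 library gave 5 to 6 for the difference of response. Adding a replicate block gave 6, 0, 6, 6, 0 and 0. Same-numbered libraries did not deviate together (r from -0.185 to 0.0517), so the numbers do not pair them, and the block moved DEGs of all genes from 531 to 255 for SLUG KO. There TCN1 changed sign without WT replicate 2 (from -0.21 to 0.45 over the left-out libraries), and all DEGs ranged from 133 to 1329 over the left-out libraries, with 946 by DESeq2 and 935 without a low-count filter. For siSMAD2/3/4, LCN2 had an adjusted p over 0.05 with flow cell as a term (log2 fold change 0.54). Over the libraries of the shared flow cell alone, which hold 1 knockdown library, its log2 fold change was 0.55 (chosen after seeing the data). LTF ranged there from -0.012, without siSMAD2/3/4 replicate 2, to 0.35. WFDC2 passed when at least 10 counts were asked of every library (0.85, adjusted p = 0.0390) and TCN1 without Csi replicate 2 (-0.38, adjusted p = 0.0423). The cause was not tested. At least 10 counts in every library, a filter that removes genes, lowered DEGs of all genes from 2285 to 1340 in MI-spheres, from 1741 to 947 in MII-spheres, from 3586 to 2146 between unstimulated lines, from 531 to 244 for SLUG KO and from 337 to 193 for siSMAD2/3/4. The secretions called ranged from 5 to 7 in MI-spheres (6 in the text) and from 11 to 20 between unstimulated lines (18 in the text), and the regulators called in MI-spheres from 8 to 9. Without TMM the order of the MII groups for LCN2, and of Csi and WT for WFDC2, was swapped. Without a low-count filter the median log2 fold change of all genes was -0.25 in MII-spheres, -0.18 for the difference of response and -0.17 for SLUG KO (-0.24, -0.16 and -0.20 by DESeq2), against -0.02, -0.00057 and -0.05 with it.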
